A study of Bos taurus with 14 samples.

Results

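Prolactin and growth hormone act on the udder through a shared relay, and the transcripts of that relay were followed here in mammary tissue of dairy cows fed with or without linseed. The genes of interest were 8, chosen by symbol: the receptors PRLR and GHR, the transcription factors STAT5A, STAT5B and ELF5, and the feedback inhibitors SOCS2, SOCS3 and CISH. Of these, 6 matched a named probe set among the 6697 symbols of the array table, and STAT5A and ELF5 are not analysed here. SOCS3 lay below the filter on low signal, so that 5 genes entered the tests. PRLR had 2 probe sets with equal values on all 14 arrays, so receptor isoforms cannot be told apart.

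When either hormone binds, its receptor activates the kinase JAK2, which phosphorylates STAT5 proteins, and these move to the nucleus and switch on genes such as those for caseins. In the mammary gland prolactin and STAT5 are known for driving alveolar development and milk protein synthesis. STAT5 also induces SOCS proteins and CISH, which dampen signalling from the same receptors.

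One array was made from mammary tissue of each of 14 Holstein-Friesian cows, arranged in 7 blocks. The concentrate of 1 cow per block held linseed, a source of omega-3 fat (Omega, n = 7), and that of its partner did not (Control, n = 7). Feeding began 3 weeks ahead of the expected calving and ended 6 weeks past it. Parity labels were 1 in 4 cows, 2 in 2 cows and between 3 and 6 in 8 cows, whereas the series' design text has none of parity 1. Groups here follow the labels, although cows labelled 1 have milk recorded for an earlier lactation. Partners had unlike parity labels in 4 blocks, and their expected calving dates were up to 48 days apart. Deposited values were log2 intensities with array medians between 5.70 and 5.76, where a difference of 1 is a doubling of signal and levels of different genes cannot be set against each other. Milk protein transcripts marked the tissue as secretory, with LALBA between 14.50 and 14.60 log2 in all cows.

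A pair of Control cows, those of blocks 302 and 304, had arrays unlike the remaining 12. Principal component 1, with 51.0% of the variance, placed them at 43.7 and 46.4 and the others between -18.1 and 10.8. Among all 7518 probe sets tested, 21.7% were higher in both of these cows than in any other cow and 15.5% were lower. Mean levels of several marker lists also stood apart in them, although single markers of a list could go other ways. The mean level of the 10 tested of 12 luminal markers was 10.51 and 10.32 log2 in the Control cows of blocks 302 and 304, against 9.58 to 10.16 in the others. KRT8, KRT7, EPCAM, ELF3 and CSN3 were above the other cows in both. MUC1 was below them, at 10.02 and 9.15 against 10.11 to 10.80. No other tested luminal marker lay beyond the other cows in both. For 6 of 10 basal and myoepithelial markers it was 8.94 and 8.78 against 8.03 to 8.53, and for 8 of 10 fibroblast markers 9.93 and 9.77 against 8.62 to 9.29. The 6 of 12 leukocyte markers were at 6.37 and 6.49 against 5.51 to 6.10, and 6 of 11 acute-phase genes at 8.55 and 10.15 against 6.43 to 8.13. Of the leukocyte markers, CD14 lay low in these cows, at 6.41 and 6.27 against 6.27 to 7.48. Of the acute-phase genes, SAA3, LTF and S100A12 were above the other cows in both. HP and S100A8 were so in block 304 only, and TLR2 in neither. Of 7 adipocyte markers, 2 were tested, at 9.22 and 8.42 against 9.04 to 9.97, and of 8 endothelial markers 6, at 6.54 and 6.19 against 5.98 to 6.42. Among the endothelial ones CLDN5 was above the other cows in both, while KDR and ENG were below them in block 302. The part of cell composition in the results below was not tested, and in bulk tissue fewer cells of a type and less RNA per cell cannot be told apart.

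The prolactin receptor PRLR was high in both of these Control cows. It reached 10.29 log2 in the Control cow of block 302 and 9.97 in that of block 304, while the other 12 cows lay between 8.15 and 9.05. In Omega cows PRLR had a lowest value of 8.51, a median of 8.77 and a highest value of 9.05, and in Control cows these were 8.15, 8.81 and 10.29. The medians were thus close and the diet groups overlapped.

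GHR, the growth hormone receptor, ran the other way in the same cows. It was lowest in the Control cow of block 302, at 5.51 log2, and next lowest in the Control cow of block 304, at 5.94, just under the range of 5.98 to 7.12 in the others. Omega cows had a lowest value of 6.18, a median of 6.52 and a highest value of 6.93, inside the Control range of 5.51 to 7.12 with its median of 6.31. The highest GHR value belonged to the Control cow of block 308, which also had the lowest PRLR value.

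STAT5B carries the signal of both receptors to the nucleus. Its values in Omega cows had a lowest of 5.09, a median of 5.46 and a highest of 5.82 log2, against 4.67, 5.16 and 5.43 in Control cows. Its mean of 5.30 was at the 41.8th percentile of all probe sets and under the array medians of 5.70 to 5.76. The lowest Control value was close to the filter at 4.59. The lowest levels were again those of the Control cows of blocks 304 and 302, at 4.67 and 4.98. Thus 1 of the 5 tested members was above the range of the other cows in these 2 animals, 2 were below it, and SOCS2 and CISH lay within it. Read against the shares of 21.7% and 15.5% over all probe sets, such positions were common on these arrays.

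The feedback inhibitors had another pattern, in which block 306 stood out. SOCS2, which limits growth hormone receptor signalling, had a lowest value of 6.53, a median of 7.32 and a highest value of 7.92 log2 in Omega cows, and 7.20, 7.54 and 8.02 in Control cows. Both ends of its range came from block 306, with 6.53 in the Omega cow and 8.02 in the Control cow. CISH, which binds activated cytokine receptors, had a lowest value of 6.55, a median of 7.74 and a highest value of 8.25 in Omega cows, and 6.81, 8.09 and 8.29 in Control cows. Here too the Omega cow of block 306 was the lowest of all 14 and its Control partner the highest. Just above that lowest CISH value came both cows of block 304, at 6.73 in Omega and 6.81 in Control, and the remaining 11 cows lay at 7.35 or above. SOCS3, an inhibitor of cytokine signalling through several receptors, ranged from 3.08 to 3.50 log2, with its mean at the 8.00th percentile of all probe sets, where little can be read from small differences.

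**Figure D1:**
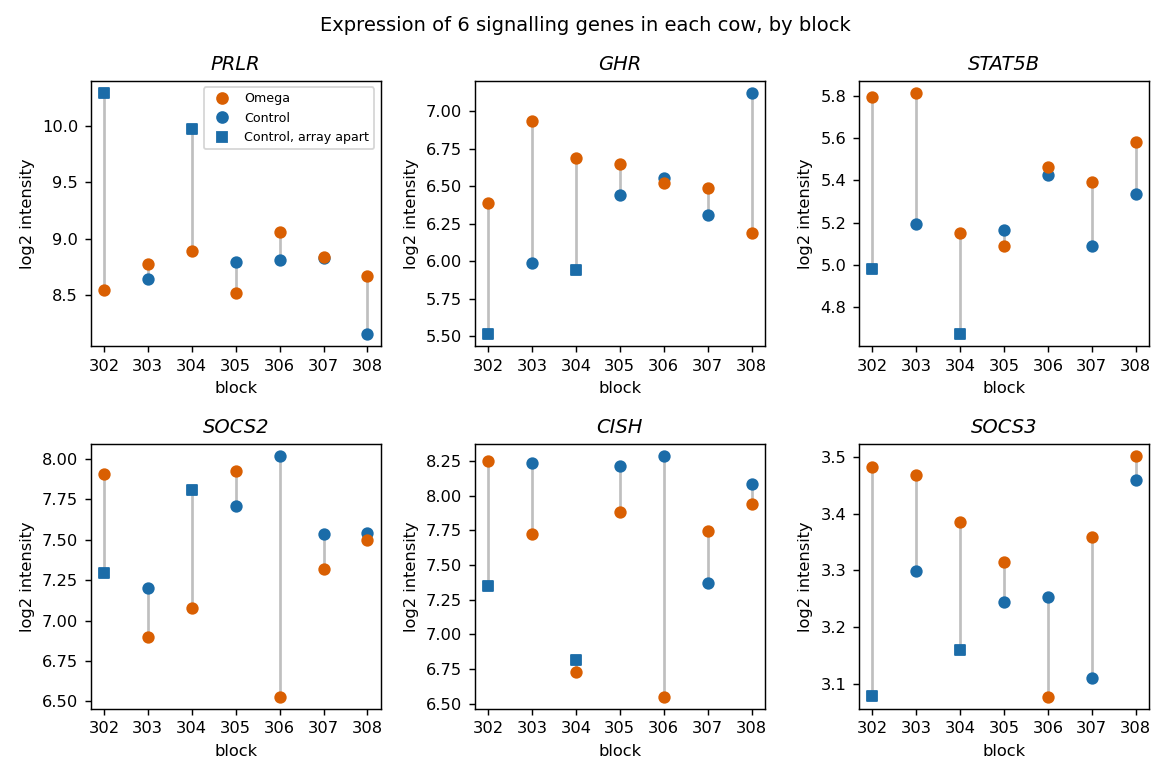
Log2 intensity of each gene (y axis, own scale per panel) in the Omega and Control cow of every block (x axis), with a line joining the pair and squares for the Control cows of blocks 302 and 304. PRLR sits at 10.29 and 9.97 in these cows and at 8.15 to 9.05 in all others, and block 306 spans the whole range of SOCS2 and CISH.

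The diet comparison asked whether linseed changed these transcripts. None of the 5 tested members passed the limma test with Benjamini-Hochberg adjustment over all probe sets, as was true of the whole table, where 0% were called. At an unadjusted p under 0.05 there was 1 of 5 members, STAT5B, which was higher in Omega cows, against 11% of all probe sets, 3.78% higher and 7.22% lower. Differences ran from -0.31 to 0.35 log2, and each confidence interval allowed changes of up to at least 0.61 log2 in 1 direction.

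STAT5B differed by 0.35 log2 between Omega and Control (95% confidence interval 0.08 to 0.61), or 1.27-fold, with 5.47 ± 0.29 against 5.12 ± 0.25 (SD, n = 7 each) and a limma adjusted p of 0.447. It was higher in the Omega cow in 6 of 7 blocks, and 8.06% of all probe sets were higher in 6 or more. The largest block differences were 0.82 in block 302, 0.62 in block 303 and 0.48 in block 304, and the single lower one was -0.07 in block 305. Flipping the signs of the 7 block differences in all ways, an exact two-sided permutation test, gave p = 0.0469 (adjusted 0.459), where 0.0156 is the smallest value possible and 10.2% of all probe sets had a p under 0.05. Without blocks 302 and 304 the difference was 0.23 (-0.04 to 0.49).

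For PRLR the difference was -0.31 log2 (-0.89 to 0.26), from means of 8.75 ± 0.19 for Omega and 9.07 ± 0.77 for Control (SD, n = 7 each; limma adjusted p = 0.577). Blocks 302 and 304 contributed -1.75 and -1.08, and the other 5 blocks lay between -0.28 and 0.52. Leaving these blocks out turned the difference to 0.13 (-0.15 to 0.40). GHR differed by 0.28 (-0.19 to 0.76; limma adjusted p = 0.557), with 6.55 ± 0.24 and 6.27 ± 0.52 (SD, n = 7 each). It was higher in Omega in 5 of 7 blocks, by up to 0.95 in block 303, and lower by 0.94 in block 308 (Omega minus Control -0.94). Without blocks 302 and 304 GHR differed by 0.07 (-0.45 to 0.59), and without block 308 by 0.49 (limma adjusted p = 0.458).

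Among the inhibitors, SOCS2 differed by -0.28 log2 (-0.77 to 0.21; limma adjusted p = 0.571) and CISH by -0.22 (-0.80 to 0.36; 0.697). SOCS2 averaged 7.31 ± 0.52 on the Omega and 7.59 ± 0.28 on the Control diet, and CISH 7.55 ± 0.64 and 7.76 ± 0.58 (SD, n = 7 each). Each was lower in the Omega cow in 5 of 7 blocks, and no tested member was lower in 6 or more, as 12.8% of all probe sets were. Block 306 gave -1.49 for SOCS2 and -1.74 for CISH, and without it the differences were -0.08 and 0.03. Without blocks 302 and 304 they were -0.37 (-0.87 to 0.14) and -0.47 (-1.06 to 0.12). SOCS3, fitted only when the filter was dropped, differed by 0.14 (-0.05 to 0.33; limma adjusted p = 0.523) and was higher in 6 of 7 blocks.

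**Figure D2:**
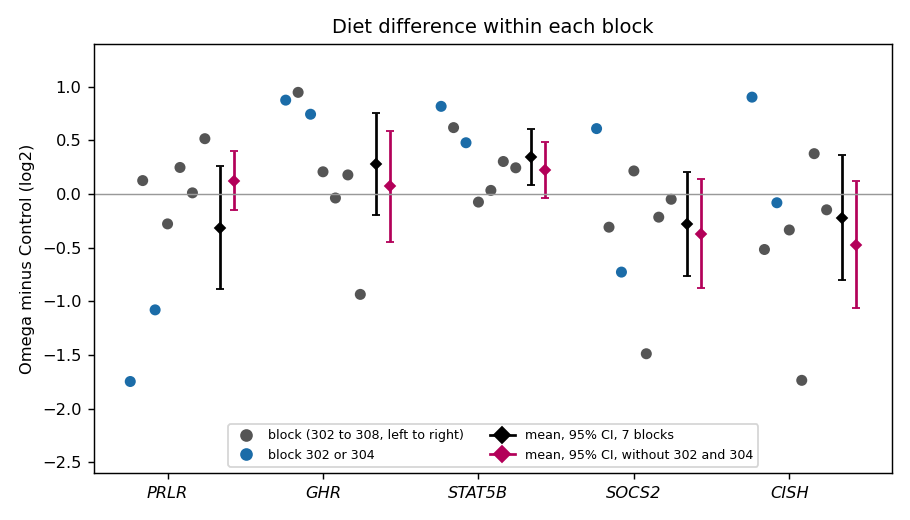
Omega minus Control difference in log2 intensity (y axis) for each tested gene, with 1 point per block in the order 302 to 308, and diamonds with bars for the limma mean and 95% confidence interval over all 7 blocks and without blocks 302 and 304. Only the interval of STAT5B over 7 blocks lies off 0 (0.08 to 0.61), and it reaches 0 without blocks 302 and 304 (-0.04 to 0.49).

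Parity was compared between the 4 cows labelled 1 and the 10 with higher labels. No member passed, nor did any probe set (0%), and 0 of 5 members had an unadjusted p under 0.05, against 2.19% of all probe sets. PRLR differed by 0.37 log2 (-0.28 to 1.01; limma adjusted p = 0.983) between parity 1 and higher parities, with 9.17 ± 0.77 (SD, n = 4) against 8.81 ± 0.46 (SD, n = 10). Without the Control cows of blocks 302 and 304, which are labelled parity 1 and 2, PRLR differed by 0.10 (-0.22 to 0.43). With the parity label fitted as a number, the PRLR difference per label step downwards was 0.19 log2 (0.06 to 0.32), which did not pass (limma adjusted p = 0.162). In that fit 1742 of 7518 probe sets had an unadjusted p under 0.05. GHR differed by -0.23 (-0.71 to 0.25), STAT5B by 0.17 (-0.16 to 0.49), SOCS2 by -0.01 (-0.53 to 0.50) and CISH by -0.06 (-0.80 to 0.67).

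In the 8 cows of parity 3 or higher CISH lay between 7.37 and 8.24 log2, and in the 4 cows of parity 1 between 6.55 and 8.29. The lower end of parity 1 was the Omega cow of block 306, and the other 3 cows lay between 7.35 and 8.29. SOCS2 had the same cow lowest in parity 1, at 6.53, with the others between 7.29 and 8.02. Both parity 2 cows, which form block 304, had CISH below all 8 older cows, at 6.73 and 6.81. The parity classes also did not overlap in milk recorded for the first part of the previous lactation, not the whole of it. It was 2110 to 2771 for label 1 and 3635 to 4841 for higher labels (unit not given in the labels), so parity and earlier milk yield cannot be told apart.

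**Figure D3:**
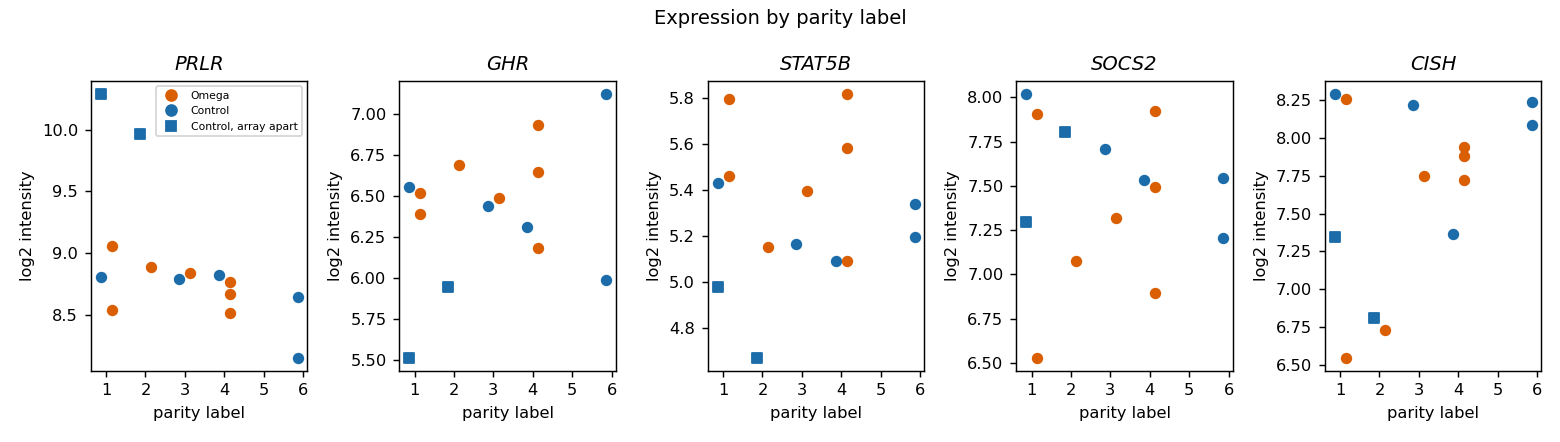
Log2 intensity (y axis, own scale per panel) against the parity label (x axis) for the 5 tested genes, with points coloured by diet and squares for the Control cows of blocks 302 and 304. CISH spans 6.55 to 8.29 in the 4 cows of parity 1 and 7.37 to 8.24 in the 8 cows of parity 3 or higher.

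The interaction of diet and parity class was fitted as well. No member passed (0 of 5) and no probe set was called (0%), with 0 of 5 members and 2.06% of all probe sets at an unadjusted p under 0.05, and all 5 members had a limma adjusted p of 0.9996. The 2 blocks with parity 1 cows went opposite ways in both inhibitors. SOCS2 was 0.61 log2 higher in the Omega cow of block 302 and at -1.49 in block 306, and CISH was 0.90 higher and at -1.74. The interaction of CISH was -0.28 (-1.77 to 1.22), and it ran from -1.60 without block 302 to 1.04 without block 306.

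Covariation between members was examined over the 12 cows other than the Control cows of blocks 302 and 304, for all 15 pairs of the 6 measured genes. After Benjamini-Hochberg adjustment none passed a permutation test with 100000 resamples. An unadjusted p under 0.05 was seen in 3 pairs, PRLR with SOCS3, PRLR with CISH and SOCS2 with CISH. Over the same cows PRLR had such a p with 10.5% of all probe sets, SOCS2 with 8.11% and CISH with 17.8%. SOCS2 and CISH had the highest correlation, with Pearson's r = 0.73 (permutation p = 0.00706, adjusted 0.106) and Spearman's rho = 0.71 (p = 0.0130, adjusted 0.196). With the diet means subtracted r was 0.69 (adjusted 0.0830). Without the 2 cows of lowest SOCS2, the Omega cows of blocks 306 and 303, r was 0.59 (permutation p = 0.0676), and over all 14 cows it was 0.55. In the 7 Omega cows r was 0.80 (exact permutation p = 0.0353, adjusted 0.177), but in the 8 cows of parity 3 or higher it was 0.13 (exact permutation p = 0.759). That these values differ between sets of cows was not tested.

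The receptor PRLR had negative correlations with all 3 inhibitors, of which none passed over the 12 cows. It had r = -0.60 with CISH (permutation p = 0.0411, adjusted 0.242; rho = -0.59) and r = -0.49 with SOCS2 (p = 0.101, adjusted 0.304; rho = -0.50). With SOCS3, close to the lower end of the scale, r was -0.57 (permutation p = 0.0484, adjusted 0.242; rho = -0.50, p = 0.101). That r was -0.35 after quantile normalization and -0.33 without the 2 cows farthest from the PRLR median. With the diet means subtracted it was -0.73 (permutation p = 0.00843, adjusted 0.0830). Within the 7 Omega cows PRLR and SOCS2 had r = -0.93 (exact permutation p = 0.00317, adjusted 0.0476 over 15 pairs), although rho, at -0.89, had an adjusted p of 0.119. In the 8 cows of parity 3 or higher that r was -0.30. The Omega cow of block 306 had the highest PRLR value of the 12, at 9.05, with the lowest SOCS2 and CISH values. PRLR and GHR had r = -0.34 over the 12 cows (permutation p = 0.274, adjusted 0.586), which became 0.26 without the 2 cows farthest from the PRLR median. Adding the Control cows of blocks 302 and 304 brought it to -0.75, with rho at -0.39 (permutation p = 0.165, adjusted 0.285), so the pooled value rests on those cows.

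**Figure D4:**
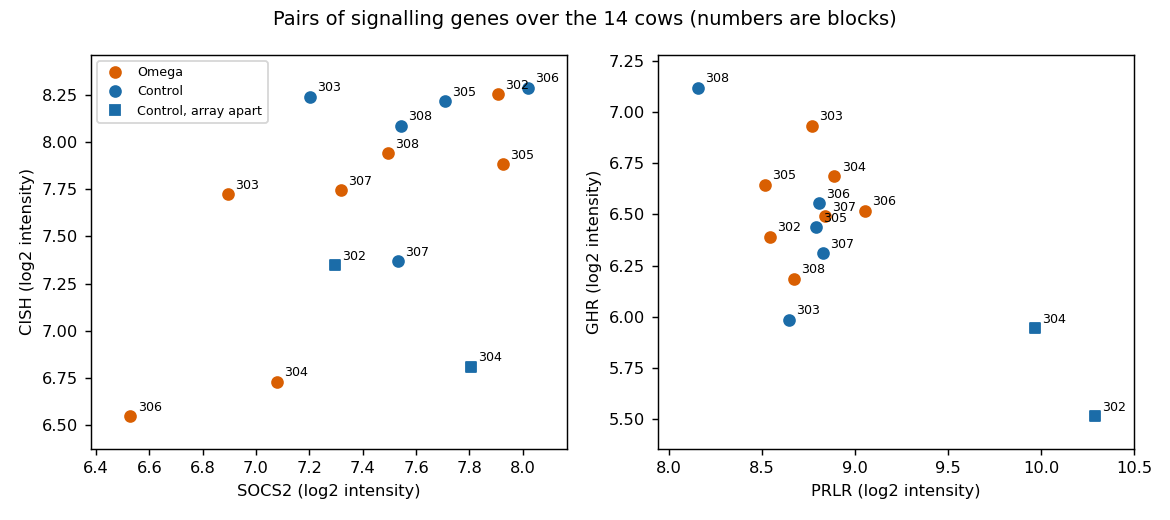
Left, CISH against SOCS2, and right, GHR against PRLR, as log2 intensity in each of the 14 cows, labelled by block and coloured by diet, with squares for the Control cows of blocks 302 and 304. SOCS2 and CISH go together at r = 0.73 over the 12 cows drawn as circles, and the 2 squares set the slope on the right, where r is -0.34 without them and -0.75 with them.

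Transcripts of the hormones themselves gave low signal in the gland. Of 18 listed ligands and other receptors, 10 had a named probe set and 2 passed the filter. PRL and GH1, the pituitary hormone genes, had means of 2.99 and 3.60 log2, under the filter at 4.59. The tested ones were IGF1, a growth factor induced by growth hormone in liver, at 0.08 log2 between Omega and Control (-0.25 to 0.40), and OSMR, the oncostatin M receptor, at -0.07 (-0.75 to 0.60). Both turned without blocks 302 and 304, to -0.14 and 0.43. The median of this pair was 0.0019, against -0.031 over all probe sets.

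Downstream of the receptors, 14 of 33 listed kinases, phosphatases and adaptors were tested, with 7 higher and 7 lower in Omega cows, a median of 0.0081 and 0 called. STAM2, an endosomal adaptor of cytokine signalling, had means of 8.04 ± 0.12 for Omega and 7.72 ± 0.23 for Control (SD, n = 7 each). Its difference of 0.33 log2 (0.09 to 0.56; limma adjusted p = 0.447) had the same sign in 7 of 7 blocks, as in 3.56% of all probe sets. PIK3CA, a catalytic subunit of phosphoinositide 3-kinase, differed by 0.24, its regulatory subunit PIK3R1 by -0.33 and the kinase MAPK3 by -0.13. Without blocks 302 and 304 STAM2 was at 0.20, PIK3CA at 0.32, PIK3R1 at 0.05 and MAPK3 at -0.04.

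Other STATs and inhibitors were tested in 7 of 21 cases, with 2 higher, 5 lower, a median of -0.11 and 0 called. PIAS1, a SUMO ligase that restrains STAT proteins, differed by 0.21 log2 (0.04 to 0.37; limma adjusted p = 0.447) and was higher in 7 of 7 blocks. RNF7, a subunit of ubiquitin ligases that SOCS proteins recruit, differed by -0.39 (-0.61 to -0.18; 0.447) and was lower in 7 of 7. STAT3 differed by -0.29, which was 0.01 without blocks 302 and 304, and RBX1, a relative of RNF7, by -0.11. Without those blocks PIAS1 was at 0.25, RNF7 at -0.31 and RBX1 at -0.09. Of 24 nuclear partners 11 were tested, with 2 higher, 9 lower, a median of -0.07 and 0 called. NMI, which binds STAT proteins, differed by 0.28 (0.06 to 0.50; limma adjusted p = 0.447), the deacetylase HDAC1 by -0.21, the transcription regulator ID2 by -0.40 and the ETS factor ELF1 by -0.23. With these blocks left out, NMI was at 0.35, ID2 at 0.07, HDAC1 at -0.07 and ELF1 at -0.0021. Of the 11, 6 were then higher and 5 lower.

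Known targets of STAT5 or prolactin were tested in 18 of 28 cases, with 11 higher and 7 lower in Omega cows, a median of 0.021 and 0 called. Among them the alpha-caseins CSN1S1 and CSN1S2 lay between 13.46 and 13.91 and between 14.51 and 14.63 log2 over all cows, and the mucin-like GLYCAM1 between 14.20 and 14.43. These are near the top of the scale at 14.81, where signal is compressed. PIM1, a kinase induced by STAT5, ranged from 6.12 to 8.59 in Omega cows, with a median of 7.97, and from 7.30 to 9.40 in Control cows, with a median of 8.14. Its difference was -0.64 log2 (-1.39 to 0.12; limma adjusted p = 0.477), lower in 4 of 7 blocks. CIDEA, a lipid droplet protein, differed by 0.79 (0.03 to 1.54; limma adjusted p = 0.450), the antioxidant enzyme SOD1 by 0.19 and GPAM, an acyltransferase of lipid synthesis, by -0.20. Without blocks 302 and 304 PIM1 was at -0.71, CIDEA at 0.45, SOD1 at 0.14 and GPAM at -0.36. Of the 18, 9 were then higher and 9 lower. For parity the 5 lists had 0 called members.

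Each tested member was also set against all other probe sets over the 12 cows, which was added after the pairs of members had been seen. By Pearson's r with permutation tests and adjustment over all probe sets, CISH had 21 of 7517 probe sets past the threshold (0.279%), 9 positive and 12 negative, and 0 by Spearman's rho. PRLR, GHR, STAT5B and SOCS2 had 0, with 10.5%, 5.23%, 9.63% and 8.11% at an unadjusted p under 0.05, where CISH had 17.8%. PGP was among the genes called for CISH, with r = 0.90 (adjusted p = 0.0465) and rho = 0.91. Without the Omega cows of blocks 306 and 304, which have the lowest CISH values of the 12, r was 0.75.

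Genes whose pattern was most like each member were ranked by the smaller of Pearson's r over 14 and over 12 cows among 4932 tested symbols. PRLR was nearest to PYGL, a glycogen phosphorylase, with a likeness of 0.85, then AP2B1, an adaptor of clathrin coats (0.84), and SBDS, a ribosome maturation factor (0.84). GHR was nearest to the kinase MARK2 (0.83), CCN5 (0.81) and the metallothionein MT3 (0.78). For STAT5B these were INHBA, an activin subunit (0.86), the DNA polymerase subunit POLD1 (0.84) and PRCC (0.82). SOCS2 was nearest to RPAIN (0.87), followed by the transporter SLC15A4 (0.76) and DICER1, which processes microRNAs (0.75). CISH had PGP, a phosphatase (0.89), the transporter SLC16A13 (0.88) and DPM2, of mannosyl donor synthesis (0.87). By the same measure CISH ranked 73 of 4931 symbols for SOCS2, and SOCS2 ranked 318 of 4931 for CISH. Over the 12 cows without the 2 farthest from the member's median, r fell to 0.36 for MT3, 0.47 for SBDS, 0.48 for SLC15A4, 0.46 for DICER1 and 0.59 for DPM2. It lay between 0.59 and 0.84 for the other 10 genes. Of all these genes only PGP passed the permutation test of r over the 12 cows. The adjusted p was 0.856 for each gene named for GHR, 0.499 for those of SOCS2 and 0.198 to 0.249 for those of PRLR. It was 0.113 to 0.263 for those of STAT5B and 0.0649 for SLC16A13 and DPM2.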

How the data were processed

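Mammary tissue of 14 cows was profiled on Affymetrix arrays, with total RNA extracted by Trizol and labelled with biotin, per the labels' protocols. The deposited values are log2 intensities per probe set. The submitters' processing notes name RMA and GCRMA with no version or role, and no genome build is given in the sources used here. Array signal can be compressed near both ends of the scale.

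Of 10852 rows, 112 control probe sets were left out. The other 10740 are named by RefSeq accession, and 6749 were matched without versions to 1 symbol each in RefSeq's gene table of assembly ARS-UCD2.0. The probe set with the highest mean was taken per symbol, and 7518 probe sets above the 30th percentile of the means (4.59 log2) were tested.

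Fits used limma 3.58.1 in R 4.3.3 with Benjamini-Hochberg adjustment over all tested probe sets and a threshold of 0.05. Diet was fitted with block as a fixed effect. Parity and its interaction with diet had block as a random effect, with consensus correlations of 0.037 and 0.019. Blocks pair the cows by label and by design, and the partners' deviations from their diet's mean had r between -0.47 and 0.32 over probe sets. Correlations used permutation tests, exact below 9 cows. The fits and tests were tested on simulated data. The number of arrays limits the precision. Nothing in the labels gives the day of sampling or a batch.

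All members with a probe set were named. Other pathway genes were named by the smallest unadjusted p for diet, up to 4 per list, and like genes by likeness. Members, lists and rules were chosen with earlier results of these data known. CSN1S1, CSN1S2, GLYCAM1, LALBA, PRL and GH1 were named after their values were seen. So were the single cell type markers and acute-phase genes, and in the closing section LPL, CD36, CLDN7 and MYC.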

Additional observations from a re-analysis of the deposited data

Results flagged for a closer look

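Among 30 groups of values examined, 2 held a cow far from the rest, and about 1 in 20 such groups would be expected to by chance. PRLR in the Control cow of block 308 was at 8.15 log2, while the other 7 cows of parity 3 or higher lay between 8.51 and 8.84. GHR in the Control cow of block 302 was at 5.51 log2, while the other 3 cows of parity 1 lay between 6.39 and 6.55. The array of this second cow stands apart from most others.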

How the results depend on the processing

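No member was called for diet, parity or their interaction under any alternative run, with 0 calls also with each block left out in turn. Under the alternatives other than single blocks left out, 44 diet differences kept their direction and 1 did not. Part of this agreement was fixed beforehand. Runs with no replicate block, no filter or the mean of a symbol's probe sets could not change a member's difference, only its p-value. With no replicate block STAT5B thus stayed at 0.35 log2, with a limma adjusted p of 0.431. For diet, PRLR turned to 0.13 without blocks 302 and 304, and array weights brought it to -0.08. Leaving out each block in turn gave -0.45 to -0.08 for PRLR, 0.17 to 0.49 for GHR, 0.27 to 0.42 for STAT5B, -0.43 to -0.08 for SOCS2 and -0.41 to 0.034 for CISH. For parity, the linear label turned STAT5B to -0.021 and SOCS2 to 0.022 per label downwards. Without the Control cows of blocks 302 and 304, SOCS2 was 0.12 and CISH 0.0014. The ranges over blocks were 0.12 to 0.61 for PRLR, -0.52 to 0.062 for GHR, 0.08 to 0.23 for STAT5B, -0.18 to 0.15 for SOCS2 and -0.29 to 0.13 for CISH. For the interaction, GHR turned to -0.21 and STAT5B to -0.046 without these 2 cows. Its ranges over blocks were -1.61 to 0.39 for PRLR, -0.27 to 0.65 for GHR, -0.28 to 0.50 for STAT5B, -1.27 to 0.83 for SOCS2 and -1.60 to 1.04 for CISH. Among pairs of members, 2 passed over all 14 cows, PRLR with GHR (r = -0.75) and PRLR with SOCS3 (r = -0.66), and 0 by Spearman's rho. Such pairs were common for PRLR, which had an unadjusted p under 0.05 with 52.9% of all probe sets over these cows. After adjustment, the probe sets correlated with a member by Pearson's r were 3321 for PRLR (44.2%), 241 for GHR (3.21%), 1260 for STAT5B (16.8%) and 36 for CISH (0.479%). By rho they were 594, 0, 74 and 38. Over 12 cows with diet means subtracted, CISH had 111 (1.48%) by r and 0 by rho. These last counts were added after seeing the data. The cause of these changes was not tested.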

Other observations

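Of the 18 tested targets of STAT5 or prolactin, 13 correlated positively with CISH and 5 negatively, with a median r of 0.17, against -0.016 over all probe sets, and 0 passed. The positive and negative counts were 11 and 7 for SOCS2 (median r 0.11), 9 and 9 for PRLR (-0.05), 8 and 10 for STAT5B (-0.03) and 5 and 13 for GHR (-0.20), with 0 passing for each. PIM1 had r = 0.86 with CISH (permutation p = 0.00119, adjusted 0.0813; rho = 0.64, p = 0.0279, adjusted 0.481). LPL, the lipoprotein lipase, had r = 0.85 (p = 0.00617, adjusted 0.126; rho = 0.43, p = 0.161, adjusted 0.643), and IGF1 had r = 0.80 (p = 0.00423, adjusted 0.112; rho = 0.45, p = 0.147, adjusted 0.635). PIM1 was at 6.12 log2 in the Omega cow of block 304 and 6.60 in that of block 306, below all other cows, which started at 7.30. Without these 2 cows r was 0.51 for PIM1, 0.07 for LPL and 0.19 for IGF1. The relations of LPL and IGF1 thus rested largely on them, while that of PIM1 fell less. Signs of other targets depended on these cows too. CD36 went from 0.64 to -0.25 and GPAM from 0.69 to -0.26, while CLDN7 rose from 0.23 to 0.62 and MYC turned from -0.57 to 0.13. The positive and negative counts therefore give no lean of the list by themselves, and the share of positive r over all probe sets was not counted. With SOCS2, PIM1 had r = 0.66 (p = 0.0181, adjusted 0.584; rho = 0.59, p = 0.0478, adjusted 0.923). Over all 14 cows PIM1 and CISH passed by r, at 0.84 (permutation adjusted p = 0.0463). They did not by rho, at 0.77 (adjusted 0.0995). In that set 0.479% of all probe sets passed for CISH. Over the 12 cows with diet means subtracted, r with CISH was 0.83 for PIM1 (adjusted p = 0.0725) and 0.85 for LPL (adjusted 0.0629).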
